A study of Thunnus thynnus with 30 samples.

Results

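Gene expression was compared between 10 and 5 days post hatch (dph) in larvae of Atlantic bluefin tuna (Thunnus thynnus) raised on rotifers with the medium level of the omega-3 fatty acid docosahexaenoic acid (DHA). The comparison rests on 6 of the 30 samples of the series, chosen by their labelled age and diet: 3 libraries of medium DHA larvae at 5 dph and 3 at 10 dph. The fish were labelled wild type, whole larvae were extracted, and the rotifers (Brachionus rotundiformis, a small live prey) held 3.6 mg DHA per g dry weight. The series also raised larvae on rotifers with 2 (low) or 10.9 (high) mg DHA per g dry weight, in 3 tanks per diet, and sampled them at 5, 10 and 15 dph. At 5 and 10 dph the low DHA groups had 3 libraries each, and the high DHA groups had 2 and 3. How many larvae were pooled per library, and whether a replicate number names a tank, is not given here, and p-values measure the spread between libraries, which may be partly technical.

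In this window a tuna larva lives on live prey after its yolk is gone. The pancreas secretes the proteases and lipases that digest this prey, since the gastric glands of fish larvae form late. At the same time the trunk muscle grows and the cartilage skeleton begins to be replaced by bone, while the retina adds photoreceptors. DHA is a major fatty acid of retinal and neural membranes. Sterols, which membranes also need, can be made from acetyl-CoA through the mevalonate pathway or taken from food. In whole-larva RNA, a change in the number of cells of a type and a change in RNA per cell cannot be told apart.

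Levels are counts scaled to library size (CPM), not corrected for gene length, and changes are log2 fold changes of 10 over 5 dph with their standard error (SE). There are 454 names shared by 916 rows but for capitals, and a value holds for the row as spelled. Such rows below include Trim25, MFAP4, Adgrf5, Tmprss2, SLC3A2, Gyg1, Tecr, Abca1, SLC27A2, Itih3, c3, CASQ1, PYGM, gapdh and Asb5. A gene is called changed at an adjusted p under 0.05 in edgeR's quasi-likelihood test, adjusted by Benjamini-Hochberg over 7292 tested genes. Of these, 2488 changed, a share of 34.1%. There were 1095 genes higher at 10 dph (15%) and 1393 lower (19.1%). These shares are the background for the counts of the gene lists below, several of which lie near them. The median change over all tested genes was -0.0098, and the median size of change among the changed genes was 0.51. Changes of at least 2-fold were found for 348 genes, 171 higher and 177 lower. The 3 libraries of each age did not overlap for 2783 genes (38.2%), and 2015 genes were both changed and free of overlap. On the first principal component of the 6 libraries, which held 64.2% of the variance, the 5 dph libraries lay at -21.0, -29.9 and -13.1 and the 10 dph libraries at 14.3, 22.9 and 26.8. The 10 dph library 1 and the 5 dph library 3 were thus the nearest to the other age. Without 10 dph library 3 the count of changed genes was 1373, and without 5 dph library 2 it was 1592. A fit of the compared groups alone called 1170.

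The libraries differed in a score for the balance of long and short transcripts, which touches many results. This length balance score was the mean log2 CPM of 40 very long genes minus that of 178 short ribosomal protein and respiratory chain rows. The short rows include 35 ribosomal protein rows with a mean under 10 CPM, whose content is not known. Their summed level was highest in 5 dph libraries 1 and 2, so the score partly follows them. It was -2.57, -2.84 and -1.70 in the 5 dph libraries and -1.55, -1.71 and -1.35 in the 10 dph libraries. Libraries 1 and 2 at 5 dph were the lowest, and the 5 dph library 3 lay beside the 10 dph libraries. The mean difference of 0.835 had an exact two-sided permutation p of 0.2, where 3 against 3 libraries allow no p under 0.1. It was 0.602 with respiratory chain rows alone as the short genes and 0.976 with ribosomal protein rows alone. With the score as a covariate, 1260 genes were called, of which 1015 were among the 2488, and without 5 dph libraries 1 and 2 the count was 819, with the lone 5 dph library assumed to vary like the other groups. The score fit, the fit without 5 dph libraries 1 and 2 and the fit of the compared groups alone are the alternative fits below. Rows that make up the score are set against a covariate built from them in the score fit, so it cannot be read for them. Of the 205 changed genes that the naming rule picked, 121 were called in the score fit and 98 without 5 dph libraries 1 and 2. Where leaving out 1 library ended a gene's call, that library stands in brackets by age and number. The part of RNA quality or library preparation in the age change was not tested.

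**Figure D1:**
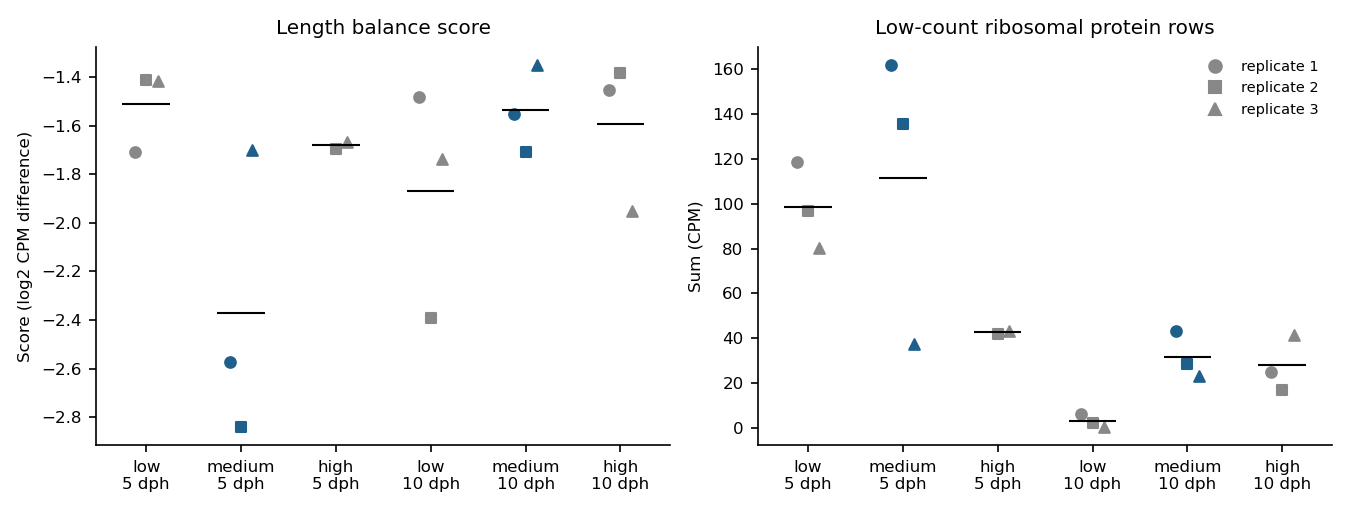
Length balance score (left, log2 CPM difference) and summed level of 35 ribosomal protein rows with a mean under 10 CPM (right, CPM) in each library of the 5 and 10 dph groups of all 3 diets. Points are libraries, black lines are group means, and medium DHA is in blue; its 5 dph libraries 1 and 2 have the lowest scores (-2.57 and -2.84) and the highest sums (162 and 136 CPM).

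Trypsin showed the largest rise among genes of at least 5 CPM without overlap. Prss1, which encodes this pancreatic protease, had 8.46, 4.6 and 3.42 CPM at 5 dph and 232, 264 and 217 CPM at 10 dph. All 10 dph libraries lay far above all 5 dph libraries, a log2 fold change of 5.42 ± 0.51 (edgeR adjusted p = 3.3e-07), and the 15 dph mean was 753 ± 209 CPM. Trypsin genes form a family with near copies, so reads may be shared between rows. CUZD1, a protein of the pancreatic zymogen granule, had 37.3, 20 and 22 CPM at 5 dph and 234, 257 and 291 CPM at 10 dph, which is a log2 fold change of 3.30 ± 0.37 (edgeR adjusted p = 2.1e-06).

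Several of the other largest rises carry names of extracellular matrix genes. COL10A1, a collagen of hypertrophic cartilage in mammals, had 119, 115 and 156 CPM at 5 dph and 927, 673 and 797 CPM at 10 dph (log2 fold change 2.62 ± 0.16, edgeR adjusted p = 2.5e-10). Every 10 dph library was above every 5 dph library by a wide margin. LOXL4, a lysyl oxidase that cross-links collagen, went from 2.25 ± 0.517 to 16.6 ± 4.42 CPM (SD, n = 3 at each age; log2 fold change 2.87 ± 0.22). Papln, a proteoglycan-like matrix protein, went from 2.15 ± 0.379 to 23 ± 1.3 CPM (3.4 ± 0.29). MFAP4, named for a microfibril-associated protein, went from 1.83 ± 1.01 to 16.6 ± 0.77 CPM (3.16 ± 0.35). Its place in the matrix of fish larvae is taken from the name alone. Of these 4, COL10A1 was by far the most abundant in CPM.

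The rest of the 12 largest rises included genes of vision, immunity and stress. opn1mw3, a green-sensitive cone opsin, had 25, 22.3 and 22.5 CPM at 5 dph and 113, 144 and 127 CPM at 10 dph (log2 fold change 2.46 ± 0.19, edgeR adjusted p = 5e-09). Its 5 dph libraries lay within 3 CPM of each other and well below the 10 dph range. MPO, the myeloperoxidase of neutrophils, had 181, 99.2 and 101 CPM at 5 dph and 584, 608 and 721 CPM at 10 dph (log2 fold change 2.33 ± 0.34). C1QL2, a secreted C1q-like protein, changed by 3.10 ± 0.24 and Adgrf5, an adhesion G protein-coupled receptor, by 2.24 ± 0.31. The chaperone gene hsp70 had 4.64, 4.3 and 4.02 CPM at 5 dph and 6.25, 31.3 and 24.3 CPM at 10 dph (log2 fold change 2.25 ± 0.45), so its 10 dph library 1 stood near the 5 dph level. Trim25, which encodes a ubiquitin ligase of antiviral signalling in mammals, changed by 2.15 ± 0.78 with a wide spread at both ages. hsp70 and Trim25 were not called in at least 1 alternative fit. Trim25 (10 dph 2 and 3; 5 dph 1 and 3) lost its call without the bracketed libraries.

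The largest falls included transporters and muscle genes. Tmprss2, a membrane serine protease, had 19.5, 11.9 and 4.02 CPM at 5 dph and 1.35, 1.38 and 2.05 CPM at 10 dph (log2 fold change -2.87 ± 0.51, edgeR adjusted p = 0.00035). Its 5 dph libraries ranged widely, with library 3 the lowest. The summed low-count ribosomal protein rows described below had the same order at 5 dph. In low DHA the Tmprss2 mean went from 12.7 CPM at 5 dph to 0 CPM at 10 dph, and that sum from 98.5 to 2.96 CPM. Whether Tmprss2 reads share a source with those rows was not tested. SLC3A2, the heavy chain of several amino acid transporters, had 19.4, 26.8 and 28 CPM at 5 dph and 9.54, 3.21 and 1.76 CPM at 10 dph (-2.35 ± 0.37). MYL5, a myosin light chain, had 22.4, 32.2 and 24.1 CPM at 5 dph and 6.51, 7.72 and 4.46 CPM at 10 dph (-2.08 ± 0.23, edgeR adjusted p = 1.5e-06). Both genes were lower in every 10 dph library. Gyg1, the glycogenin that primes glycogen synthesis, went from 16.4 ± 4.07 to 4.59 ± 0.633 CPM (-1.84 ± 0.21), and MAP1LC3C, an autophagosome protein, from 209 ± 36.6 to 65.5 ± 25 CPM (-1.68 ± 0.26). The sugar transporter SLC2A11 changed by -1.88 ± 0.30, the amino acid transporter slc38a8 by -1.74 ± 0.23, C1ql3 by -1.70 ± 0.34 and IGSF22 by -1.80 ± 0.28. The otolith matrix gene otomp, the intrinsic factor gene CBLIF and the muscle gene ankrd1 complete the 12 and are described with their organs. Tmprss2 was not called in at least 1 alternative fit. Tmprss2, SLC3A2 and Gyg1 each share their name with another row but for capitals, so their falls are those of the rows as spelled.

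**Figure D2:**
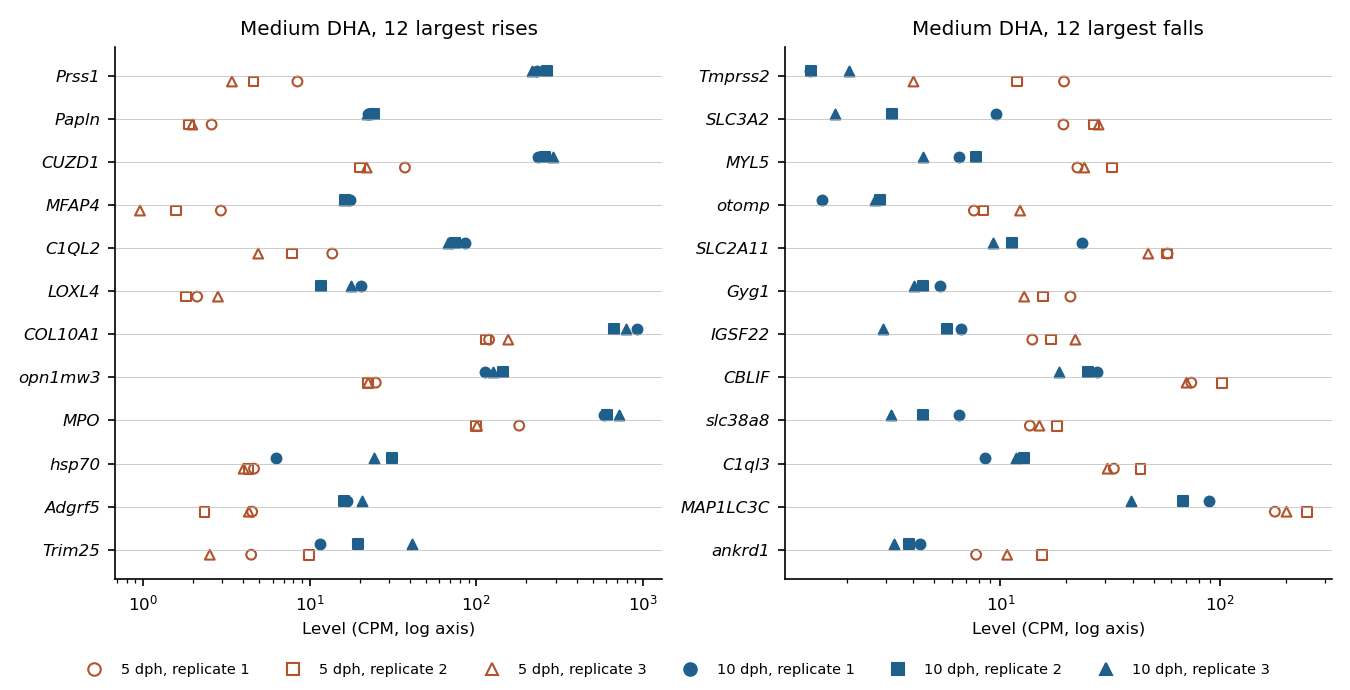
Level (CPM, log axis) of the 12 genes with the largest rises (left) and falls (right) in each medium DHA library, open symbols for 5 dph and filled symbols for 10 dph, with symbol shape for the replicate number. No gene shown has overlapping ages; Prss1 runs from 3.42 to 8.46 CPM at 5 dph and from 217 to 264 CPM at 10 dph.

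Of 13 rows for pancreatic enzymes, 4 rose and 2 fell, with a median log2 change of -0.052. Beside Prss1 and CUZD1, the chymotrypsin-like protease CTRL rose, with 505, 468 and 365 CPM at 5 dph and 819, 739 and 918 CPM at 10 dph (0.89 ± 0.14, edgeR adjusted p = 9.5e-05). CEL, the bile-salt-activated lipase, fell from 1247 ± 174 to 907 ± 105 CPM (-0.46 ± 0.14). The protease rows named here were thus higher and this 1 lipase row lower at 10 dph, while 7 of the 13 rows did not pass. The other row that fell had a mean under 5 CPM and is not described here, so no contrast of proteases and lipases is drawn. The pancreatic counts, up and down, were 4 and 0 with the score and 4 and 1 in the compared groups alone (medians 0.085 and -0.039). CEL was not called in at least 1 alternative fit. CEL (10 dph 1 and 2; 5 dph 1 and 2) lost its call without the bracketed libraries.

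Among 8 stomach rows, 2 rose and 3 fell. CBLIF, the gastric intrinsic factor that binds vitamin B12, fell, with 74.1, 103 and 70.5 CPM at 5 dph and 27.6, 25.1 and 18.4 CPM at 10 dph (-1.80 ± 0.42, edgeR adjusted p = 0.0031). Rows named Chia and CHIA, which differ only in capitals and stand for chitinases able to digest crustacean shell, moved apart. Chia rose from 2283 ± 337 to 3512 ± 255 CPM (0.62 ± 0.10), and the far less abundant CHIA fell from 33.8 ± 5.69 to 21.1 ± 11 CPM (-0.68 ± 0.22). CBLIF and CHIA were not called in at least 1 alternative fit. CHIA (10 dph 2 and 3; 5 dph 3) lost its call without the bracketed libraries. The stomach counts, up and down, were 2 and 1 with the score, 2 and 1 without 5 dph libraries 1 and 2 and 2 and 1 in the compared groups alone (medians -0.52, -0.30 and -0.20, against -0.087 in the fit of all groups). For the stomach list, the falls numbered 1 without 10 dph library 2.

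The intestinal list held 40 rows, of which 11 rose and 6 fell (median -0.0077). Genes of sterol uptake and return were among the rises. Npc1l1, which takes up dietary sterol, had 188, 104 and 183 CPM at 5 dph and 315, 314 and 325 CPM at 10 dph (1.00 ± 0.15, edgeR adjusted p = 6.2e-05), with 5 dph library 2 the lowest. Abcg8, a subunit of the pump that returns sterols to the gut lumen, went from 9.46 ± 1.83 to 21 ± 2.24 CPM (1.14 ± 0.24). The secretory cell gene agr2 went from 25 ± 4.73 to 56.6 ± 10.3 CPM (1.19 ± 0.15), and Olfm4, a crypt cell marker in mammals, from 4.06 ± 1.72 to 13.9 ± 3.08 CPM (1.76 ± 0.35). Among the falls, the protease Mep1a changed by -0.73 ± 0.19, the peptide transporter row Slc15a1 by -0.60 ± 0.16, the peptidase Naaladl1 by -0.53 ± 0.17 and the trehalase treh by -1.61 ± 0.49. A row named SLC15A1 in capitals is a separate row and rose, so no direction is given for that transporter. Mep1a, Slc15a1, Naaladl1 and treh were not called in at least 1 alternative fit. Slc15a1 (10 dph 3; 5 dph 1), Naaladl1 (10 dph 2 and 3; 5 dph 1) and treh (10 dph 2 and 3; 5 dph 1) lost their calls without the bracketed libraries. The direction of treh turned, to 0.026 with the score and 0.33 without 5 dph libraries 1 and 2. treh had 20.6, 11.6 and 3.06 CPM at 5 dph, the same order as the summed low-count ribosomal protein rows. Its low DHA mean went from 14.1 CPM at 5 dph to 0.235 CPM at 10 dph. Whether treh reads share a source with those rows was not tested. The intestinal counts, up and down, were 9 and 1 with the score, 8 and 0 without 5 dph libraries 1 and 2 and 9 and 4 in the compared groups alone (medians 0.035, 0.16 and 0.0071, against -0.0077 in the fit of all groups). For the intestinal list, the falls numbered 1 without 10 dph library 3, 2 without 5 dph library 1 and 3 without 10 dph library 2.

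Sterol synthesis genes rose together. Of 22 rows, 19 rose and 1 fell, with a median log2 change of 0.99 against -0.0098 for all tested genes. FDPS, which makes farnesyl diphosphate, had 54.9, 45.3 and 47.7 CPM at 5 dph and 113, 195 and 176 CPM at 10 dph (1.71 ± 0.20, edgeR adjusted p = 2.3e-06). PMVK, a kinase of the mevalonate steps, had 8.87, 9.05 and 5.58 CPM at 5 dph and 15.7, 34.2 and 26.6 CPM at 10 dph (1.70 ± 0.23). In both genes all 10 dph libraries were higher, and 10 dph library 1 was the lowest of the 3. CYP51A1, the lanosterol demethylase, went from 46.3 ± 9.04 to 123 ± 14.4 CPM (1.41 ± 0.17), and NSDHL, which acts after it, from 16.9 ± 2.1 to 42 ± 11.4 CPM (1.31 ± 0.22). The row that fell was insig1, which encodes a brake on this pathway, with 289.5, 189 and 171 CPM at 5 dph and 83.1, 147 and 123 CPM at 10 dph (-0.88 ± 0.20, edgeR adjusted p = 0.0021). The rises numbered 19 in the score fit and in each fit without 1 library, and 18 without 5 dph libraries 1 and 2. insig1 was not called in at least 1 alternative fit.

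**Figure D3:**
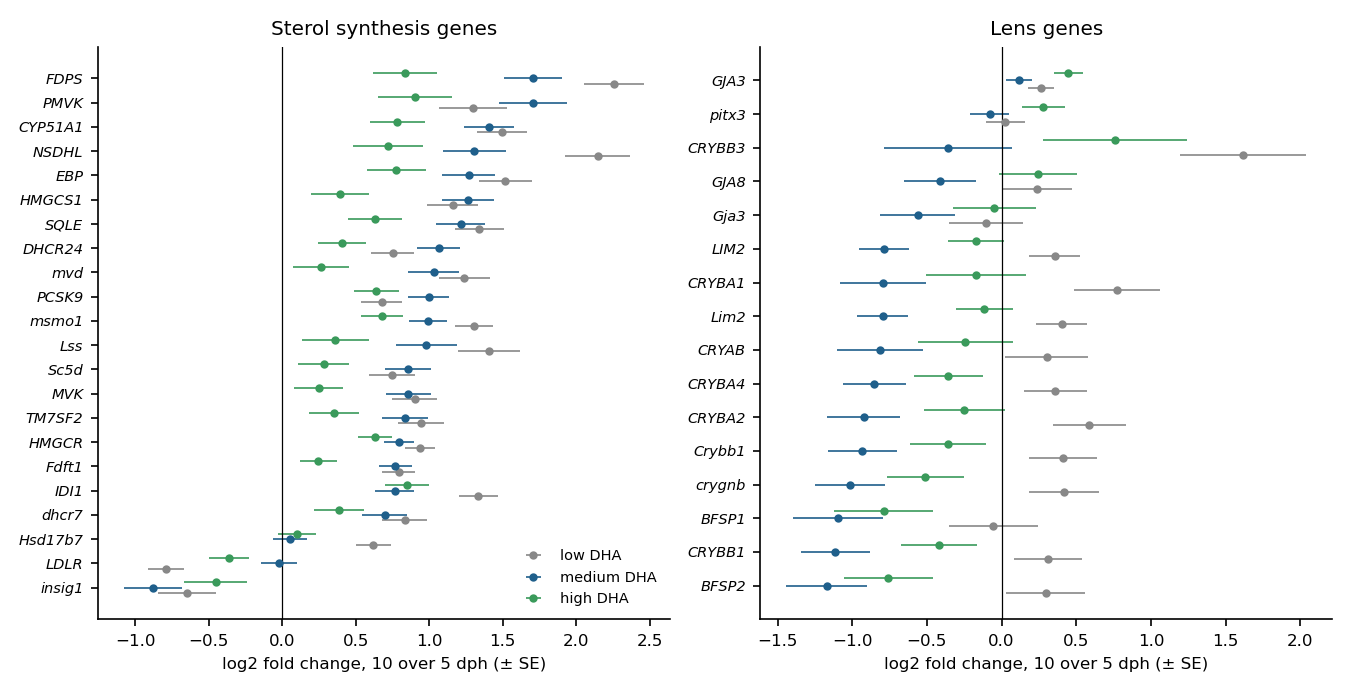
Log2 fold change of 10 over 5 dph (± SE) for the sterol synthesis rows (left, 22) and lens rows (right, 16) in low, medium and high DHA larvae; the zero line marks no change. In medium DHA 19 sterol rows rose and 11 lens rows fell.

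In fatty acid synthesis 4 of 14 rows rose and 0 fell, a share not above the 34.1% of all tested genes. mid1ip1b, which in mammals promotes the activity of acetyl-CoA carboxylase, had 7.69, 8.45 and 6.18 CPM at 5 dph and 11.5, 28.2 and 32.7 CPM at 10 dph (1.70 ± 0.35, edgeR adjusted p = 0.001). Its 10 dph library 1 stood nearest the 5 dph range. Rows elovl6 (1.29 ± 0.15) and Elovl6 (1.35 ± 0.31), whose names differ only in capitals and stand for the elongase of saturated fatty acids, both rose, as did Acly (0.89 ± 0.19), which makes cytosolic acetyl-CoA. Elovl6 and Acly were not called in at least 1 alternative fit. The fatty acid synthesis counts, up and down, were 4 and 1 with the score, 2 and 0 without 5 dph libraries 1 and 2 and 4 and 0 in the compared groups alone (medians 0.054, 0.04 and 0.02, against 0.008 in the fit of all groups).

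Of 9 rows for long-chain polyunsaturated fatty acid synthesis, 3 rose and none fell, a share near the 34.1% of all tested genes. fads2, the desaturase of this route, had 11.2, 11.2 and 11.6 CPM at 5 dph and 14, 19 and 14.4 CPM at 10 dph (0.47 ± 0.13, edgeR adjusted p = 0.0077). The ages did not overlap, and the step was small. The elongation cycle genes Tecr and hsd17b12a changed by 0.51 ± 0.10 and 0.48 ± 0.10. fads2 and Tecr were not called in at least 1 alternative fit. fads2 (10 dph 2) lost its call without the bracketed library.

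In fatty acid oxidation 3 of 16 rows rose and 1 fell, a share below the 34.1% of all tested genes. CPT1A, the mitochondrial entry step, changed by 0.33 ± 0.09, the peroxisomal oxidase ACOX3 by 0.55 ± 0.12, Hadha of the mitochondrial spiral by 0.34 ± 0.09 and the electron carrier Etfb by -0.31 ± 0.09. CPT1A, ACOX3, Hadha and Etfb were not called in at least 1 alternative fit. Hadha (10 dph 2 and 3) and Etfb (10 dph 3; 5 dph 2) lost their calls without the bracketed libraries.

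Lipid transport rows numbered 29, with 6 higher and 4 lower at 10 dph, a share near the 34.1% of all tested genes. mfsd2ab, a paralogue of the lysophospholipid carrier that brings DHA into brain and eye in mammals, had 16.4, 16.4 and 17.5 CPM at 5 dph and 27.9, 41 and 35.7 CPM at 10 dph (1.05 ± 0.12, edgeR adjusted p = 2.8e-06). All 10 dph libraries lay above the 5 dph libraries. The fatty acid carrier SLC27A6 went from 37.8 ± 1.84 to 68.9 ± 9.74 CPM (0.86 ± 0.16) and the intestinal fatty acid binding protein FABP2 from 434 ± 59.6 to 730.4 ± 91.8 CPM (0.75 ± 0.16), while the cholesterol exporter Abca1 changed by 0.46 ± 0.13. The falls were SCARB1, a lipoprotein and carotenoid receptor (-0.69 ± 0.14), SLC27A2 (-0.45 ± 0.08), the lipoprotein lipase LPL (-0.38 ± 0.13) and Abcg1 (-0.22 ± 0.08). Abca1, LPL and Abcg1 were not called in at least 1 alternative fit. Abca1 (10 dph 1; 5 dph 2), LPL (10 dph 2 and 3; 5 dph 1) and Abcg1 (10 dph 1, 2 and 3; 5 dph 1 and 2) lost their calls without the bracketed libraries. For the lipid transport list, the falls numbered 2 without 10 dph library 2 or 3 or 5 dph library 1. The lipid transport counts, up and down, were 8 and 4 with the score, 6 and 2 without 5 dph libraries 1 and 2 and 3 and 2 in the compared groups alone (medians 0.19, 0.28 and 0.049, against 0.036 in the fit of all groups).

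Liver genes included bile acid enzymes that rose. CYP8B1, the sterol hydroxylase that makes cholic acid, had 11.2, 11.4 and 11.6 CPM at 5 dph and 45.5, 41.3 and 38 CPM at 10 dph (1.87 ± 0.14, edgeR adjusted p = 5e-09). CYP7A1, the rate-limiting enzyme of bile acid synthesis, had 88.3, 70.9 and 73.4 CPM at 5 dph and 230.3, 179.6 and 153 CPM at 10 dph (1.27 ± 0.19). Both enzymes were higher in every 10 dph library. AHSG, a plasma glycoprotein, went from 5.01 ± 1.58 to 17.8 ± 2.63 CPM (1.83 ± 0.27), and the plasma protein Itih3 from 3.55 ± 0.455 to 7.33 ± 0.885 CPM (1.04 ± 0.24). Amino acid breakdown enzymes were among the falls, with hpd of tyrosine at -0.91 ± 0.11 and AGXT of glyoxylate at -0.80 ± 0.12. Complement c3 changed by -0.63 ± 0.25 and transferrin tf by -0.51 ± 0.16. In all, 9 of 30 liver rows rose and 5 fell. Itih3, c3 and tf were not called in at least 1 alternative fit. c3 (10 dph 1, 2 and 3; 5 dph 1 and 2) and tf (10 dph 1; 5 dph 1 and 2) lost their calls without the bracketed libraries. For the liver list, the falls numbered 2 without 5 dph library 1 or 2 and 3 without 10 dph library 2 or 3. The liver counts, up and down, were 7 and 2 with the score, 7 and 2 without 5 dph libraries 1 and 2 and 9 and 3 in the compared groups alone (medians 0.0095, 0.17 and 0.14, against 0.13 in the fit of all groups).

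The glycolysis and fast muscle lists share several rows, and in both more rows rose than fell. Of 34 rows for glycolysis and gluconeogenesis, 14 rose and 8 fell. ldha, the muscle form of lactate dehydrogenase, had 880.0, 1024 and 978 CPM at 5 dph and 2695, 2396 and 2419 CPM at 10 dph (1.38 ± 0.14, edgeR adjusted p = 6.1e-07). tpi1b, a triose phosphate isomerase, went from 2023 ± 333 to 4328 ± 228 CPM (1.1 ± 0.12), and the hexokinase Hk2 from 9.23 ± 0.9 to 20.2 ± 3.66 CPM (1.14 ± 0.14). For ldha the ages did not overlap. The falls included glucose-making enzymes, namely G6PC1 (-0.55 ± 0.18), g6pc1 (-0.66 ± 0.18) and FBP1 (-0.53 ± 0.12), and the regulator PFKFB3 (-0.69 ± 0.17). G6PC1, g6pc1 and FBP1 were not called in at least 1 alternative fit. G6PC1 (10 dph 2 and 3; 5 dph 1) and g6pc1 (10 dph 2 and 3) lost their calls without the bracketed libraries. The glycolysis counts, up and down, were 12 and 3 with the score, 9 and 2 without 5 dph libraries 1 and 2 and 10 and 4 in the compared groups alone (medians 0.15, 0.12 and 0.017, against 0.0047 in the fit of all groups). For the glycolysis list, the rises numbered 9 without 10 dph library 1 and the falls numbered 5 without 10 dph library 3.

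In fast muscle 15 of 36 rows rose and 1 fell (median 0.30). CASQ1, the calcium-binding protein of the fast muscle calcium store, had 16.2, 14.5 and 13.3 CPM at 5 dph and 63.1, 50.6 and 51.6 CPM at 10 dph (1.91 ± 0.18, edgeR adjusted p = 1.8e-07). PYGM, muscle glycogen phosphorylase, went from 972 ± 120.4 to 2151 ± 116 CPM (1.15 ± 0.15) and the muscle enolase ENO3 from 1967 ± 178 to 4207 ± 1299 CPM (1.1 ± 0.19). gapdh, a glycolytic enzyme whose row is among the most abundant, had 6464, 7291 and 2327 CPM at 5 dph and 13284, 8270.2 and 8064 CPM at 10 dph (0.88 ± 0.27), with the 5 dph library 3 the lowest. Asb5, a muscle ubiquitin ligase component, changed by -0.65 ± 0.19. gapdh and Asb5 were not called in at least 1 alternative fit. gapdh (10 dph 1) and Asb5 (10 dph 2 and 3) lost their calls without the bracketed libraries. Fast muscle rises numbered 16 with the length score as a covariate and 12 without 5 dph libraries 1 and 2.

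Slow muscle and heart rows moved mostly the other way, with 3 of 32 higher and 12 lower (median -0.28). Myh6, a cardiac myosin heavy chain, had 284, 311 and 304 CPM at 5 dph and 209.5, 189 and 172 CPM at 10 dph (-0.66 ± 0.11, edgeR adjusted p = 0.00011). All 10 dph libraries were lower than all 5 dph libraries. Tnnc1, the slow and cardiac troponin C, changed by -0.65 ± 0.13, and PLN, the inhibitor of the cardiac calcium pump, by -0.83 ± 0.22. The cardiac calcium release channel row RYR2 rose by 0.48 ± 0.14, while Ryr2 fell from 4.63 ± 1.78 to 2.06 ± 0.969 CPM (-1.17 ± 0.34). MYH6 rose from 1.55 ± 0.547 to 3.52 ± 0.378 CPM (1.196 ± 0.267), against the fall of Myh6. The names in each pair differ only in capitals, so no direction is given for the channel or this myosin. Ryr2 and MYH6 were both under 5 CPM, and their calls in the alternative fits are not given here. Rows ankrd1 (11.3 ± 3.89 to 3.81 ± 0.517 CPM, -1.56 ± 0.30) and ANKRD1 (23.4 ± 5.86 to 39.8 ± 5.91 CPM, 0.77 ± 0.20) differ only in capitals and moved in opposite directions. Tnnc1 was not called in at least 1 alternative fit. RYR2 and Ryr2 are also among the very long genes of the score. They are thus not read in the score fit or without 5 dph libraries 1 and 2, though the slow muscle counts below include them. RYR2 (10 dph 3) lost its call without the bracketed library. The slow muscle counts, up and down, were 2 and 8 with the score, 2 and 7 without 5 dph libraries 1 and 2 and 3 and 8 in the compared groups alone (medians -0.10, -0.10 and -0.27, against -0.28 in the fit of all groups).

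Of 16 rows for muscle growth and wasting, 2 rose and 3 fell, a share near the 34.1% of all tested genes. FBXO32, the ubiquitin ligase atrogin-1 of muscle wasting in mammals, had 270.3, 381 and 286 CPM at 5 dph and 170.2, 138 and 105 CPM at 10 dph (-1.18 ± 0.23, edgeR adjusted p = 0.00076). TRIM63, its partner MuRF1, had 131, 186 and 122 CPM at 5 dph and 93, 34.7 and 36.8 CPM at 10 dph (-1.41 ± 0.34), and klhl38 changed by -1.33 ± 0.30. Every 10 dph library was lower, with library 1 the highest of the 3 in both ligase genes. The myosin chaperone unc45b had 56.5, 50.4 and 57.3 CPM at 5 dph and 57.6, 123 and 105 CPM at 10 dph (0.79 ± 0.20) and the myogenic factor myod1 changed by 0.41 ± 0.16. TRIM63, klhl38, unc45b and myod1 were not called in at least 1 alternative fit. myod1 (10 dph 1 and 3; 5 dph 1 and 2) lost its call without the bracketed libraries. The muscle growth counts, up and down, were 1 and 3 with the score, 0 and 1 without 5 dph libraries 1 and 2 and 1 and 3 in the compared groups alone (medians -0.26, -0.24 and -0.044, against -0.054 in the fit of all groups).

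Cartilage and bone rows split. Of 27 rows, 4 rose and 8 fell (median -0.22). The rises were COL10A1, phospho1, a phosphatase that starts mineralization (24.4 ± 2.03 to 46 ± 9.84 CPM, 0.92 ± 0.14), HAPLN1, a link protein of cartilage matrix (0.63 ± 0.13), and the parathyroid hormone receptor PTH1R (0.59 ± 0.21). Other genes of cartilage were among the falls. Col9a2, a chain of cartilage collagen IX, had 274, 316 and 385 CPM at 5 dph and 218, 127 and 129.7 CPM at 10 dph (-1.03 ± 0.23, edgeR adjusted p = 0.0021). CNMD, the cartilage growth factor chondromodulin, had 32, 40 and 40.3 CPM at 5 dph and 24, 12.9 and 12 CPM at 10 dph (-1.19 ± 0.29). In both genes 10 dph library 1 lay between the 5 dph range and the other two libraries. The matrilins MATN3 (-0.97 ± 0.32) and MATN1 (-1.57 ± 0.54) also fell, the latter with 97 CPM in 5 dph library 3 and overlapping ages. HAPLN1, PTH1R, CNMD, MATN3 and MATN1 were not called in at least 1 alternative fit. PTH1R (10 dph 1, 2 and 3; 5 dph 2 and 3), MATN3 (10 dph 2 and 3; 5 dph 2 and 3) and MATN1 (10 dph 2 and 3; 5 dph 3) lost their calls without the bracketed libraries. The cartilage and bone counts, up and down, were 2 and 7 with the score, 2 and 9 without 5 dph libraries 1 and 2 and 3 and 6 in the compared groups alone (medians -0.43, -0.48 and -0.21, against -0.22 in the fit of all groups). For the cartilage and bone list, the falls numbered 4 without 10 dph library 3 and 5 without 10 dph library 2 or 5 dph library 3.

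In the notochord and collagen list 15 of 35 rows rose and 2 fell (median 0.30). SERPINH1, the collagen chaperone, had 43.2, 48.5 and 55.4 CPM at 5 dph and 66.7, 112 and 115 CPM at 10 dph (1.00 ± 0.16, edgeR adjusted p = 0.00012). All 10 dph libraries were higher, with library 1 the lowest. Col12a1 (0.88 ± 0.22), COL6A3 (0.78 ± 0.17) and PLOD1 (0.84 ± 0.20), which encode 2 collagens and a collagen hydroxylase, rose with the 5 dph library 3 the highest of its age in each. The laminin rows Lamb1 (-0.61 ± 0.13) and LAMB1 (-0.52 ± 0.19), which differ only in capitals, fell. Col12a1, COL6A3, PLOD1 and LAMB1 were not called in at least 1 alternative fit. LAMB1 (10 dph 2 and 3; 5 dph 2 and 3) lost its call without the bracketed libraries. The notochord and collagen counts, up and down, were 3 and 2 with the score, 3 and 3 without 5 dph libraries 1 and 2 and 8 and 1 in the compared groups alone (medians 0.15, 0.11 and 0.31, against 0.30 in the fit of all groups). For the notochord and collagen list, the rises numbered 8 without 5 dph library 1 and 9 without 10 dph library 3.

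Lens genes fell. Of 16 rows, 11 were lower and none higher, with a median log2 change of -0.81. CRYBB1, a beta crystallin, had 1048, 968 and 872 CPM at 5 dph and 451, 491 and 393 CPM at 10 dph (-1.11 ± 0.23, edgeR adjusted p = 0.0011). BFSP2, a beaded filament protein of lens fibre cells, had 111, 97.7 and 82.2 CPM at 5 dph and 34.8, 54.2 and 40.2 CPM at 10 dph (-1.17 ± 0.27). In both, the 10 dph libraries were clearly below the 5 dph libraries. BFSP1 changed by -1.10 ± 0.30 and the gamma crystallin crygnb by -1.01 ± 0.24. At 15 dph the means were 743 ± 198 CPM for CRYBB1 and 75.6 ± 17.2 CPM for BFSP2, between those of 5 and 10 dph. CRYBB1, BFSP2, BFSP1 and crygnb were not called in at least 1 alternative fit. The lens counts, up and down, were 0 and 1 with the score, 0 and 0 without 5 dph libraries 1 and 2 and 0 and 12 in the compared groups alone (medians -0.62, -0.52 and -0.79, against -0.81 in the fit of all groups).

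Phototransduction rows numbered 38, 7 higher and 9 lower. The rises included GRK1, the opsin kinase that ends the light response, with 62.8, 66.1 and 55.5 CPM at 5 dph and 81.6, 86.7 and 82.7 CPM at 10 dph (0.45 ± 0.10, edgeR adjusted p = 0.0022), the retinal transporter ABCA4 (0.48 ± 0.10) and the photoreceptor matrix gene EYS (0.63 ± 0.17). The 2 sets of libraries did not overlap for GRK1. UNC119, which carries lipid-modified proteins to the outer segment, fell from 156 ± 19.9 to 95.4 ± 10.4 CPM (-0.71 ± 0.09). RGS9, which with its anchor RGS9BP speeds recovery from light, fell from 171 ± 12 to 125 ± 3 CPM (-0.45 ± 0.08), and RGS9BP changed by -0.61 ± 0.14. RDH12 (0.70 ± 0.11) and Rdh12 (-0.71 ± 0.14), retinol dehydrogenase rows that differ only in capitals, moved apart. ABCA4, EYS, RGS9BP and Rdh12 were not called in at least 1 alternative fit. EYS (10 dph 3) lost its call without the bracketed library. The phototransduction counts, up and down, were 4 and 7 with the score, 4 and 2 without 5 dph libraries 1 and 2 and 5 and 4 in the compared groups alone (medians -0.078, 0.11 and 0.035, against 0.028 in the fit of all groups). For the phototransduction list, the rises numbered 4 without 10 dph library 2 or 3.

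In the inner ear 4 of 14 rows rose and 6 fell. otomp, an otolith matrix protein of fish, had 7.57, 8.37 and 12.3 CPM at 5 dph and 1.55, 2.83 and 2.7 CPM at 10 dph (-2.0 ± 0.43, edgeR adjusted p = 0.0015). Each 10 dph library lay under 3 CPM. Tmie, part of the hair cell transduction channel, changed by -0.85 ± 0.13 and zpld1, a cupula protein in zebrafish, by -0.62 ± 0.19. Rows ZPLD1 (-1.64 ± 0.42) and Zpld1 (1.97 ± 0.47), both under 5 CPM, share its name but for capitals and moved apart. Myo7a, the hair bundle myosin, rose by 0.91 ± 0.20 and Tecta, a tectorial membrane protein, by 0.68 ± 0.21. zpld1, Myo7a and Tecta were not called in at least 1 alternative fit. zpld1 (10 dph 1) and Tecta (10 dph 3; 5 dph 1 and 2) lost their calls without the bracketed libraries. The inner ear counts, up and down, were 1 and 5 with the score, 1 and 4 without 5 dph libraries 1 and 2 and 3 and 5 in the compared groups alone (medians -0.10, 0.038 and 0.33, against 0.095 in the fit of all groups).

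Of 58 neuron and synapse rows, 9 rose and 2 fell (median 0.31), a share below the 34.1% of all tested genes. GAD2, which makes the transmitter GABA, had 87.5, 41.8 and 78.4 CPM at 5 dph and 96, 120.5 and 119 CPM at 10 dph (0.69 ± 0.22, edgeR adjusted p = 0.022). Its 5 dph library 2, which has the lowest length score, was the lowest, and the same held for the glutamate receptor Gria4 (0.79 ± 0.30), the vesicle protein Sv2b (0.77 ± 0.25) and the kinase CAMK2A (0.60 ± 0.22). INA, an intermediate filament of young neurons, fell, with 110.0, 130.1 and 102 CPM at 5 dph and 63, 53.5 and 48.2 CPM at 10 dph (-1.05 ± 0.13, edgeR adjusted p = 6.7e-06), and the calcium channel CACNA1B changed by -0.37 ± 0.14. GAD2, Gria4, Sv2b, CAMK2A and CACNA1B were not called in at least 1 alternative fit. GAD2 (10 dph 2 and 3; 5 dph 2), Gria4 (10 dph 1, 2 and 3; 5 dph 2 and 3), Sv2b (10 dph 3; 5 dph 2), CAMK2A (10 dph 2 and 3; 5 dph 2) and CACNA1B (10 dph 1, 2 and 3; 5 dph 3) lost their calls without the bracketed libraries. The neuron counts, up and down, were 1 and 6 with the score, 1 and 3 without 5 dph libraries 1 and 2 and 4 and 1 in the compared groups alone (medians -0.16, 0.14 and 0.32, against 0.31 in the fit of all groups). For the neuron list, the rises numbered 1 without 5 dph library 2, 3 without 10 dph library 3 and 5 without 10 dph library 2.

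Of 9 glia rows 3 fell and none rose, a share near the 34.1% of all tested genes. Apod, a lipid-binding apolipoprotein, went from 6589 ± 1575 to 2965 ± 374 CPM (-1.15 ± 0.25), GLUL, the glutamine synthetase of astrocytes in mammals, changed by -0.51 ± 0.12 and OLIG2, an oligodendrocyte factor, by -0.32 ± 0.12. Both Apod and GLUL are also expressed outside glia. Apod, GLUL and OLIG2 were not called in at least 1 alternative fit. OLIG2 (10 dph 2 and 3; 5 dph 1, 2 and 3) lost its call without the bracketed libraries. The glia counts, up and down, were 0 and 2 with the score, 0 and 0 without 5 dph libraries 1 and 2 and 0 and 2 in the compared groups alone (medians -0.22, -0.12 and -0.22, against -0.23 in the fit of all groups). For the glia list, the falls numbered 5 without 10 dph library 1.

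In the list of neural progenitor and patterning genes 2 of 22 rows rose and 4 fell, a share below the 34.1% of all tested genes. The eye field factor rx2 rose, with 37.1, 28.9 and 31.5 CPM at 5 dph and 46.7, 69.2 and 57.8 CPM at 10 dph (0.83 ± 0.12, edgeR adjusted p = 3.6e-05), and the bipolar cell factor vsx1 fell from 23.6 ± 2.71 to 13.5 ± 1 CPM (-0.81 ± 0.12). WNT11 changed by 0.28 ± 0.08, Hes5 by -0.56 ± 0.18, MEIS1 by -0.29 ± 0.09 and meis1 by -0.49 ± 0.17. WNT11, Hes5, MEIS1 and meis1 were not called in at least 1 alternative fit. WNT11 (10 dph 1; 5 dph 1), Hes5 (10 dph 3; 5 dph 2), MEIS1 (10 dph 2 and 3; 5 dph 3) and meis1 (10 dph 2 and 3; 5 dph 2 and 3) lost their calls without the bracketed libraries. For the progenitor list, the falls numbered 1 without 10 dph library 3 and 2 without 10 dph library 2 or 5 dph library 2 or 3.

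Of 76 cell cycle rows, 22 rose and 1 fell (median 0.20). The share changed was below the 34.1% of all tested genes, of which 15% rose and 19.1% fell. MKI67, the proliferation marker, had 32.4, 26 and 37.7 CPM at 5 dph and 46.7, 52.3 and 51.7 CPM at 10 dph (0.65 ± 0.15, edgeR adjusted p = 0.0027), and CENPF, a kinetochore protein, changed by 0.57 ± 0.12. All 10 dph libraries were higher than all 5 dph libraries in both. The cytokinesis genes RACGAP1 (0.55 ± 0.15) and cdca8 (0.55 ± 0.15) also rose, and DUT, which clears dUTP, changed by -0.34 ± 0.12. MKI67, CENPF, RACGAP1, cdca8 and DUT were not called in at least 1 alternative fit. cdca8 (10 dph 2) and DUT (10 dph 1 and 3; 5 dph 1 and 2) lost their calls without the bracketed libraries. The cell cycle counts, up and down, were 2 and 1 with the score, 1 and 0 without 5 dph libraries 1 and 2 and 7 and 0 in the compared groups alone (medians 0.22, 0.19 and 0.21, against 0.20 in the fit of all groups). For the cell cycle list, the rises numbered 10 without 10 dph library 2 or 3 and 13 without 5 dph library 2.

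Of 54 rows for ribosome assembly, 34 fell and 1 rose (median -0.31). NOB1, which finishes the small subunit, had 66.6, 66.8 and 57.2 CPM at 5 dph and 48.5, 41.1 and 33.7 CPM at 10 dph (-0.63 ± 0.11, edgeR adjusted p = 0.00029), and nol11, a factor for ribosomal RNA synthesis, changed by -0.65 ± 0.10. Both genes were lower in every 10 dph library. WDR36 changed by -0.74 ± 0.17 and the nucleolar helicase DDX21 by -0.61 ± 0.16, while the nucleolar chaperone NPM1 rose by 0.27 ± 0.10. WDR36, DDX21 and NPM1 were not called in at least 1 alternative fit. NPM1 (10 dph 2 and 3; 5 dph 2 and 3) lost its call without the bracketed libraries. The ribosome assembly counts, up and down, were 1 and 9 with the score, 1 and 6 without 5 dph libraries 1 and 2 and 0 and 12 in the compared groups alone (medians -0.18, -0.20 and -0.30, against -0.31 in the fit of all groups). For ribosome assembly, the falls numbered 18 without 10 dph library 3.

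Of 111 rows for cytosolic ribosomal proteins, 73 fell and none rose (median -0.41). They form 2 sets apart in level. The 76 rows at or above a mean of 28.9 CPM had 40 falls and a median of -0.34. Rpl22 had 69.6, 88.3 and 53.8 CPM at 5 dph and 47.8, 44.3 and 38.3 CPM at 10 dph (-0.70 ± 0.16, edgeR adjusted p = 0.0027), and its highest library was 5 dph library 2. rps29 changed by -0.55 ± 0.13, Rpl3 by -0.56 ± 0.19 and Rpl38 by -0.52 ± 0.16. The other 35 rows, none with a mean above 2.38 CPM, had 33 falls and a median of -1.78. Their summed level was 162, 136 and 37.4 CPM at 5 dph and 43.2, 28.6 and 23.3 CPM at 10 dph, so the ages overlapped and the fall lay in 5 dph libraries 1 and 2. What these low rows hold cannot be told from the table, and no direction for ribosomal proteins is drawn from them. Ribosomal protein rows are part of the score, so the score fit and the fit without its lowest libraries are not read for them. The abundant ribosomal protein counts, up and down, were 0 and 1 in the compared groups alone (median -0.33). For the abundant rows, the falls numbered 2 without 5 dph library 2, 3 without 10 dph library 3, 23 without 10 dph library 1 and 74 without 5 dph library 3. rps29, Rpl3 and Rpl38 were not called in the compared groups alone. Rpl3 (10 dph 2 and 3; 5 dph 2) and Rpl38 (10 dph 3; 5 dph 2) lost their calls without the bracketed libraries.

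Nuclear genes of the respiratory chain had 47 falls and no rise among 67 rows (median -0.33). NDUFS5 of complex I had 109, 129 and 84.5 CPM at 5 dph and 66.1, 62.1 and 61.5 CPM at 10 dph (-0.76 ± 0.13, edgeR adjusted p = 0.00017). The ages did not overlap, and 5 dph library 2 was the highest, as it also was for NDUFB10 (-0.57 ± 0.12), Uqcrh (-0.56 ± 0.13) and SDHC (-0.52 ± 0.12). These rows are also part of the score, and the same 2 fits are not read for them. Uqcrh and SDHC were not called in the compared groups alone. The respiratory chain counts, up and down, were 0 and 5 in the compared groups alone (median -0.32). For the respiratory chain, the falls numbered 10 without 5 dph library 2 and 19 without 10 dph library 3.

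Proteasome rows showed 13 falls and 1 rise among 33. The rise was Nfe2l1, the transcription factor that induces proteasome genes in mammals, from 26 ± 1.02 to 48.6 ± 7.88 CPM (0.90 ± 0.12, edgeR adjusted p = 1.5e-05). The subunits psmb4 (-0.66 ± 0.13), PSMA4 (-0.47 ± 0.13) and Psmb5 (-0.44 ± 0.09) and the assembly factor POMP (-0.45 ± 0.13) fell. psmb4, PSMA4, Psmb5 and POMP were not called in at least 1 alternative fit. PSMA4 (5 dph 2) and POMP (10 dph 3; 5 dph 2) lost their calls without the bracketed libraries. The proteasome counts, up and down, were 1 and 0 with the score, 1 and 0 without 5 dph libraries 1 and 2 and 1 and 1 in the compared groups alone (medians 0.03, 0.075 and -0.24, against -0.26 in the fit of all groups). For the proteasome, the falls numbered 2 without 5 dph library 2, 5 without 10 dph library 3, 7 without 10 dph library 1 and 24 without 5 dph library 3.

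The 40 very long genes, which define the other side of the score, had 8 rises and 2 falls (median 0.28), a share below the 34.1% of all tested genes. CELSR1, a planar polarity cadherin, rose from 5.75 ± 2.18 to 14.7 ± 3.21 CPM (1.34 ± 0.24), Plec, a cytoskeletal linker, by 0.74 ± 0.15 and HERC1, a ubiquitin ligase, by 0.71 ± 0.25. LRP2, the endocytic receptor megalin, fell, with 144, 144 and 143 CPM at 5 dph and 113, 109 and 106 CPM at 10 dph (-0.39 ± 0.07, edgeR adjusted p = 0.00037). Its 5 dph libraries were within 2 CPM of each other. As members of the score they are not read in those 2 fits either. HERC1 (10 dph 3; 5 dph 1 and 2) lost its call without the bracketed libraries. The very long gene counts, up and down, were 10 and 1 in the compared groups alone (median 0.29). For very long genes, the rises numbered 4 without 10 dph library 3 and 13 without 5 dph library 3.

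Skin genes rose more often than they fell, 11 against 3 of 23 rows (median 0.32). Krt17, a keratin, had 31.3, 33.9 and 30.8 CPM at 5 dph and 85.6, 89.3 and 98.5 CPM at 10 dph (1.51 ± 0.12, edgeR adjusted p = 5.8e-09). TGM5, a transglutaminase that hardens the epidermis in mammals, went from 6.8 ± 0.792 to 18.7 ± 1.01 CPM (1.45 ± 0.22), and Col7a1, the anchoring collagen under the epidermis, from 7.44 ± 2.82 to 20.4 ± 5.69 CPM (1.44 ± 0.20). All 3 genes were higher in every 10 dph library. The tight junction gene Cldn4 changed by -1.17 ± 0.19 and the desmosome gene PKP3 by -0.78 ± 0.13. The skin counts, up and down, were 8 and 3 with the score, 4 and 3 without 5 dph libraries 1 and 2 and 10 and 3 in the compared groups alone (medians 0.30, 0.34 and 0.33, against 0.32 in the fit of all groups).

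Pigment cell rows showed 7 falls and no rise among 11. slc24a5, an ion exchanger of melanosomes, had 40.7, 50 and 30.3 CPM at 5 dph and 25.5, 18.1 and 18.6 CPM at 10 dph (-0.96 ± 0.16, edgeR adjusted p = 0.00011), Slc45a2 changed by -0.65 ± 0.14 and the melanin enzyme tyrp1 by -0.59 ± 0.16. The 10 dph library 1 was the highest of its age for each of these. slc24a5, Slc45a2 and tyrp1 were not called in at least 1 alternative fit. tyrp1 (10 dph 2 and 3) lost its call without the bracketed libraries. The pigment counts, up and down, were 0 and 4 with the score, 0 and 1 without 5 dph libraries 1 and 2 and 0 and 3 in the compared groups alone (medians -0.32, -0.41 and -0.40, against -0.41 in the fit of all groups). For pigment cells, the falls numbered 3 without 10 dph library 3 and 4 without 10 dph library 2.

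Of 13 blood rows, 2 rose and 2 fell, a share near the 34.1% of all tested genes. alas2, the first enzyme of heme synthesis in red cells, had 17.4, 29.6 and 18.7 CPM at 5 dph and 10.5, 9.55 and 6.22 CPM at 10 dph (-1.32 ± 0.24, edgeR adjusted p = 0.00039). The beta globin row hbb changed by -0.48 ± 0.16, the transferrin receptor TFRC by 0.67 ± 0.12 and BLVRB, which reduces biliverdin, by 0.36 ± 0.13. hbb and BLVRB were not called in at least 1 alternative fit. hbb (10 dph 2 and 3; 5 dph 2) and BLVRB (10 dph 2 and 3; 5 dph 3) lost their calls without the bracketed libraries.

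In gill and ion transport 6 of 21 rows rose and 2 fell, a share near the 34.1% of all tested genes. CA4, a carbonic anhydrase, rose from 297 ± 12.4 to 400.4 ± 4.6 CPM (0.43 ± 0.08, edgeR adjusted p = 0.00068), and the water channel Aqp1 fell from 199 ± 26.5 to 132 ± 9.62 CPM (-0.59 ± 0.09). Slc12a1 changed by 0.42 ± 0.14, Hsd11b2 by 0.41 ± 0.15, the ionocyte factor FOXI1 by 0.30 ± 0.11 and the ammonia transporter rhbg by -0.30 ± 0.09. Slc12a1, Hsd11b2, FOXI1 and rhbg were not called in at least 1 alternative fit. Slc12a1 (10 dph 2 and 3; 5 dph 2), Hsd11b2 (10 dph 1 and 3; 5 dph 1, 2 and 3), FOXI1 (10 dph 1 and 3; 5 dph 1 and 3) and rhbg (10 dph 3; 5 dph 2) lost their calls without the bracketed libraries. The gill counts, up and down, were 2 and 1 with the score, 1 and 1 without 5 dph libraries 1 and 2 and 3 and 1 in the compared groups alone (medians 0.014, 0.11 and 0.038, against 0.027 in the fit of all groups). For the gill list, the rises numbered 1 without 10 dph library 3, 2 without 5 dph library 2 and 3 without 10 dph library 2 or 5 dph library 3.

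Immune rows rose in 12 and fell in 2 of 29 cases (median 0.41). Beside MPO and Trim25, Cd74, the chaperone of class II antigen presentation, rose, with 8.1, 6.64 and 6.06 CPM at 5 dph and 32.3, 25.9 and 33 CPM at 10 dph (2.13 ± 0.18, edgeR adjusted p = 1.3e-08). The interferon factor IRF3 went from 5.35 ± 0.261 to 14.6 ± 3.76 CPM (1.44 ± 0.34). The granulocyte receptor CSF3R changed by -0.45 ± 0.16 and the chemokine Ccl25 by -0.45 ± 0.14. A marker of neutrophils (MPO) and a receptor of the same lineage (CSF3R) thus moved in opposite directions. IRF3, CSF3R and Ccl25 were not called in at least 1 alternative fit. CSF3R (10 dph 1 and 2; 5 dph 1 and 2) and Ccl25 (10 dph 2 and 3; 5 dph 2) lost their calls without the bracketed libraries. The immune counts, up and down, were 9 and 0 with the score, 5 and 0 without 5 dph libraries 1 and 2 and 11 and 0 in the compared groups alone (medians 0.23, 0.36 and 0.42, against 0.41 in the fit of all groups).

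Of 40 heat shock and stress rows, 10 rose and 8 fell. HSPA5, the endoplasmic reticulum chaperone BiP, had 252, 244 and 223 CPM at 5 dph and 289, 671 and 752 CPM at 10 dph (1.25 ± 0.27, edgeR adjusted p = 0.0014), and PDIA4, a disulfide isomerase, had 64.6, 62.5 and 53.4 CPM at 5 dph and 65.3, 118 and 124 CPM at 10 dph (0.77 ± 0.18). In both, 10 dph library 1 lay just above the 5 dph range and the other two well above it. GADD45B, a stress-induced growth regulator, fell from 110.0 ± 18 to 45.6 ± 9.56 CPM (-1.27 ± 0.19), and GPX1 (-0.59 ± 0.15), hspb1 (-0.55 ± 0.13) and XBP1 (-0.51 ± 0.14) fell by smaller amounts. HSPA5, GPX1, hspb1 and XBP1 were not called in at least 1 alternative fit. GPX1 (5 dph 2) and XBP1 (5 dph 2) lost their calls without the bracketed libraries. The stress counts, up and down, were 10 and 1 with the score, 4 and 1 without 5 dph libraries 1 and 2 and 5 and 2 in the compared groups alone (medians 0.14, 0.13 and 0.053, against 0.041 in the fit of all groups). For the stress list, the rises numbered 6 without 10 dph library 3 and the falls numbered 3 without 5 dph library 2 and 5 without 10 dph library 3.

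Of 20 clock rows, 5 rose, 4 fell and 11 did not pass. The rises were the activators CLOCK, BMAL1 and NPAS2 and the related receptors RORB and Rora, and the falls were Bhlhe40, Ciart, NR1D2 and TEF. CLOCK had 3.58, 3.09 and 3.3 CPM at 5 dph and 4.64, 22.5 and 17.5 CPM at 10 dph (2.15 ± 0.34, edgeR adjusted p = 8.5e-05), BMAL1 had 10.5, 9.96 and 11.2 CPM at 5 dph and 13.4, 24.2 and 22.5 CPM at 10 dph (0.92 ± 0.18) and Bhlhe40 had 381, 347 and 350.1 CPM at 5 dph and 268, 208 and 200.3 CPM at 10 dph (-0.67 ± 0.11). For CLOCK and BMAL1, 10 dph library 1 was the nearest to 5 dph. NPAS2 changed by 0.94 ± 0.19, RORB by 0.87 ± 0.19, Rora, named here after its values were seen, by 0.38 ± 0.13, Ciart by -0.71 ± 0.23, NR1D2 by -0.53 ± 0.15 and TEF by -0.67 ± 0.25. No label gives the hour of sampling, and its part was not tested. NPAS2, RORB, Ciart, NR1D2 and TEF were not called in at least 1 alternative fit. For Rora, the calls in the alternative fits are not given here. Ciart (10 dph 2 and 3; 5 dph 3), NR1D2 (10 dph 2 and 3; 5 dph 3) and TEF (10 dph 2 and 3; 5 dph 1, 2 and 3) lost their calls without the bracketed libraries. The clock counts, up and down, were 3 and 4 with the score, 2 and 2 without 5 dph libraries 1 and 2 and 4 and 2 in the compared groups alone (medians -0.16, -0.078 and -0.055, against -0.067 in the fit of all groups). For the clock list, the falls numbered 1 without 10 dph library 2 or 3 or 5 dph library 3 and 7 without 10 dph library 1.

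Of 16 hormone and growth rows, 2 rose and 4 fell, a share near the 34.1% of all tested genes. GHR, the growth hormone receptor, had 194, 224 and 201 CPM at 5 dph and 163, 97.6 and 79.8 CPM at 10 dph (-0.86 ± 0.24, edgeR adjusted p = 0.0085), with 10 dph library 1 the highest of its age. Insulin (ins) changed by -0.41 ± 0.12 and the glucocorticoid-induced Tsc22d3 by -0.45 ± 0.12, while the thyroid hormone receptor thra rose by 0.61 ± 0.22. Rows Klf15 (-0.78 ± 0.16) and KLF15 (0.61 ± 0.17), a fasting and glucocorticoid response factor, differ only in capitals and moved apart. GHR, ins, Tsc22d3, thra and KLF15 were not called in at least 1 alternative fit. GHR (10 dph 3), ins (10 dph 2 and 3; 5 dph 2), Tsc22d3 (5 dph 2) and thra (10 dph 1 and 3; 5 dph 1 and 2) lost their calls without the bracketed libraries. The direction of thra turned with the score, to -0.035. For the hormone list, the falls numbered 2 without 10 dph library 3 or 5 dph library 2.

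**Figure D4:**
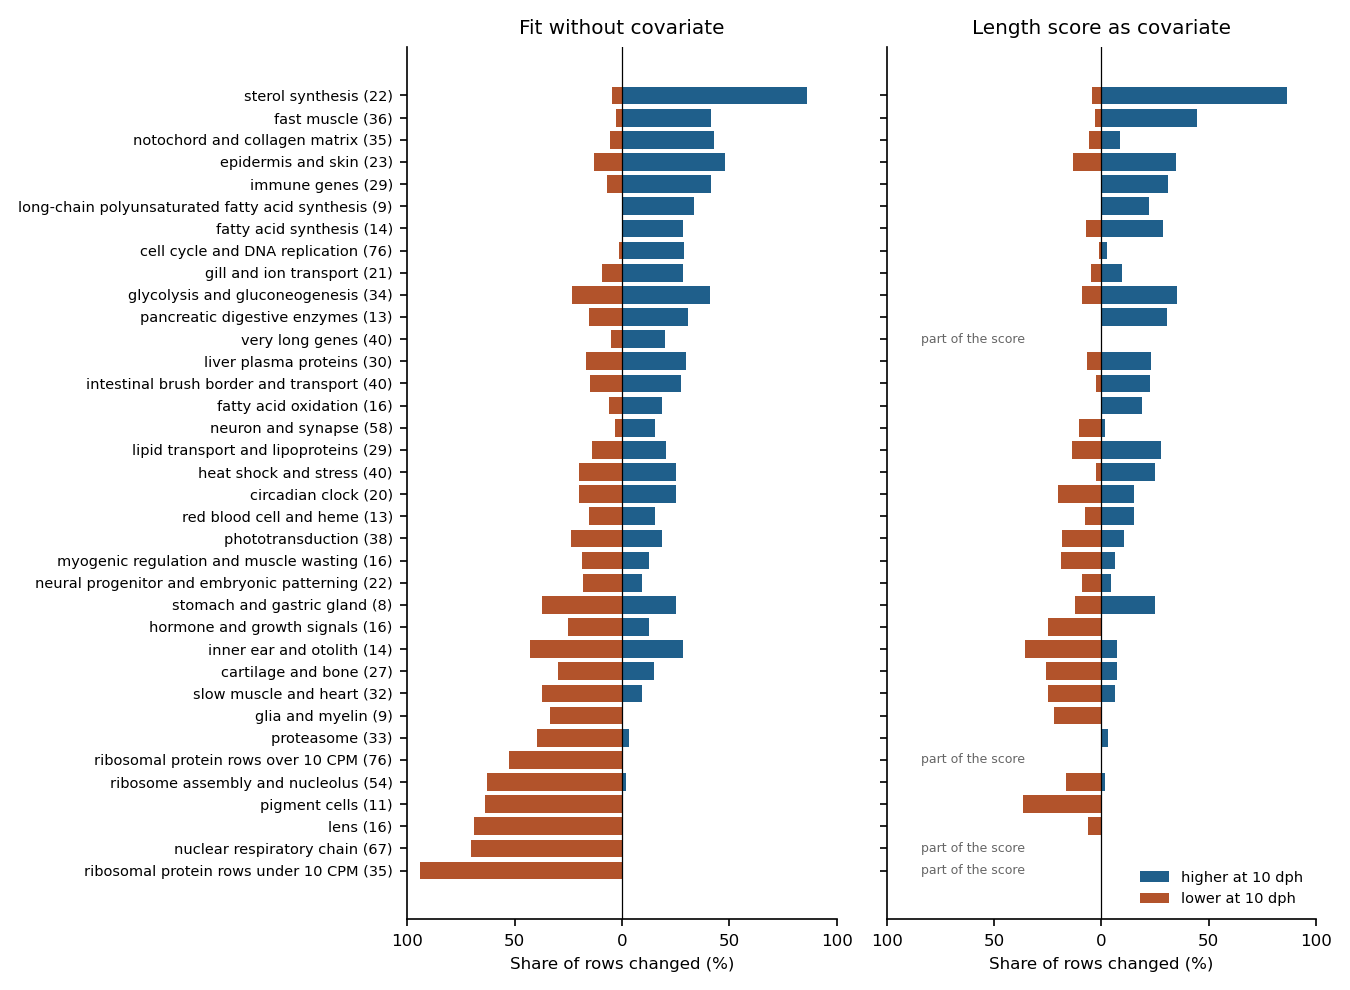
Share of each list's rows that were higher (blue, right) or lower (brown, left) at 10 dph in medium DHA larvae, in the fit without a covariate (left panel) and with the length score as a covariate (right panel); the number of rows is in brackets. Rows that make up the score have no bars on the right. Sterol synthesis has 19 rises of 22 rows in both panels.

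The age change in medium DHA was set beside that of the other diets, which share no library with it. In low DHA larvae 4317 genes changed between the same ages (59.2%), 2210 higher (30.3%) and 2107 lower (28.9%). In high DHA larvae 1194 changed (16.4%), 634 higher (8.69%) and 560 lower (7.68%). Of the 2488 genes changed in medium DHA, 1149 changed in the same direction in low DHA, which is 46.2% of the medium and 26.6% of the low DHA list, and 390 changed in the opposite direction. With high DHA the shared same-direction genes numbered 703, which is 28.3% of the medium and 58.9% of the high DHA list, and 3 were opposite. Pearson's r of the log2 changes over 7292 genes was 0.37 with low and 0.61 with high DHA, as a description across genes, which are not independent replicates. The 3 diets share the ages and the library preparation.

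**Figure D5:**
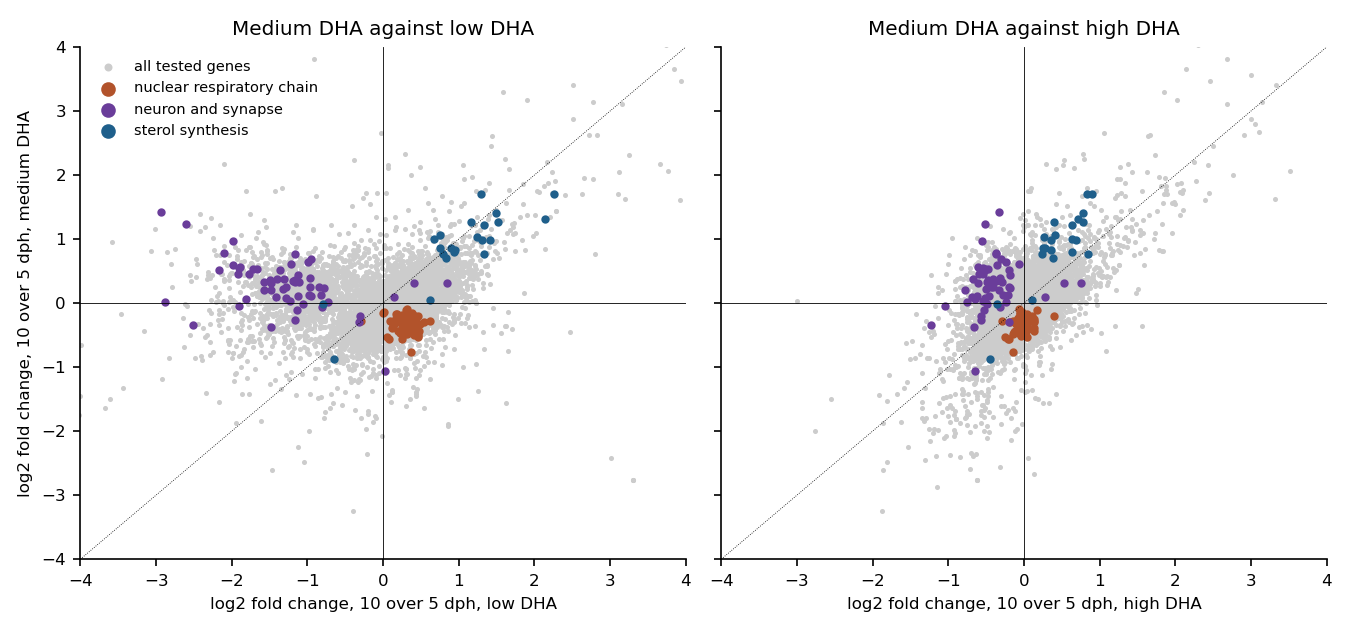
Log2 fold change of 10 over 5 dph in medium DHA (vertical axis) against that in low DHA (left) and high DHA (right) for all tested genes, with 3 lists in colour; the dotted line marks equal change. Beyond the axes lie 83 genes on the left and 9 on the right; sterol synthesis rows lie above 0 in both panels but for a few, and most neuron rows lie left of 0 in the low DHA panel.

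Tested directly, the age change differed between medium and low DHA for 3154 genes (43.3%), 1656 with a more positive change in medium DHA (22.7%) and 1498 with a more negative one (20.5%). With the length score as a covariate these 2 directions held 789 and 140 genes, so the near balance was not kept in that fit. Among neuron and synapse rows, 52 of 58 were more positive in medium DHA, with a median difference of 1.55. In low DHA 52 of these rows fell between 5 and 10 dph (median -1.26), and in medium DHA 2 did. Lens rows went the other way, with 11 of 16 more negative in medium DHA and a median difference of -1.21. The 76 abundant ribosomal protein rows had 75 more negative changes in medium DHA, and the respiratory chain 64 of 67. In the compared groups alone these counts were 75 and 58. Both sets are part of the length score, whose lowest libraries (medium DHA 5 dph 1 and 2, low DHA 10 dph 2) enter this difference. The score fit and the fit without medium 5 dph libraries 1 and 2 are thus not read for them. Sterol synthesis differed in 1 and 3 of 22 rows, with a median change of 1.05 in low and 0.99 in medium DHA.

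Single genes show the sizes. OIT3, a secreted liver protein in mammals, had 24.8, 28.4 and 31.5 CPM at 5 dph and 85.5, 77.6 and 83.6 CPM at 10 dph, a change of 1.54 ± 0.15, against -0.18 ± 0.14 in low DHA (difference 1.72 ± 0.21, edgeR adjusted p = 2.9e-05). ADGRF5, an adhesion receptor whose name is shared with Adgrf5 but for capitals, changed by 1.52 ± 0.17 in medium and -0.41 ± 0.17 in low DHA, a difference of 1.93 ± 0.24. Both genes rose in medium DHA, in all 3 libraries, and not in low DHA. The synaptic scaffold gene Dlgap2 differed by 2.02 ± 0.24, NHLRC3 by 1.96 ± 0.24 and Lurap1 by 1.72 ± 0.21, with falls in low DHA of -1.62 ± 0.18, -1.64 ± 0.17 and -1.62 ± 0.15. VGF, a neuropeptide precursor, changed by 0.47 ± 0.11 in medium and -0.83 ± 0.12 in low DHA.

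Among genes with a more negative change in medium DHA, MYL5 differed by -2.06 ± 0.32 (edgeR adjusted p = 5.4e-05), and its change in low DHA was -0.018 ± 0.22. NME1, a nucleoside diphosphate kinase, differed by -1.23 ± 0.19, rrp15, a ribosome assembly factor, by -0.94 ± 0.13, Erh by -1.02 ± 0.16, Gm525 by -1.53 ± 0.24 and NFYB, a subunit of a promoter-binding factor, by -0.70 ± 0.11. With the length score as a covariate the genes that differed from low DHA numbered 929, and the neuron rows with a more positive change 37, with a median difference of 0.86. No lens row was called in that fit, where the median difference was -0.89. The low DHA 10 dph library 2 also had a low score, -2.39, and the part of length balance was not tested beyond that fit.

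Between medium and high DHA the age change differed for 1 gene (0.0137%) in edgeR, with 1533 at an unadjusted p under 0.05 (21%) and 105 in DESeq2. The gene was ABRA, a muscle actin-binding activator of transcription, with 24, 27.1 and 28.1 CPM at 5 dph and 16.2, 12.1 and 10.7 CPM at 10 dph. All 10 dph libraries were lower, and the change was -1.02 ± 0.15 in medium and 0.36 ± 0.16 in high DHA. The difference of -1.39 had an edgeR adjusted p of 0.019. Without 10 dph library 1 the count was 214 and without 5 dph library 3 it was 49. It was 2 without 5 dph library 1, and 0 without 10 dph library 2, without 10 dph library 3, without high DHA 5 dph library 2, in a fit of the compared groups alone and with the replicate block. ABRA was not called without high DHA 5 dph library 3 or high DHA 10 dph library 1 either, where 1 other gene was. A difference that misses the threshold does not show that both diets moved alike. Sterol synthesis had 10 of 22 rows higher at 10 dph in high DHA with a median of 0.40, against 0.99 in medium DHA, and no row passed the test of the difference.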

How the data were processed

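RNA of whole larvae was extracted with Tri-reagent and made into libraries with a TruSeq RNA kit, per the labels' protocols. The authors deposited raw counts per gene name, 7295 rows and 26 libraries, and per the submitters' processing notes used DESeq2; aligner, counting program, strand setting, assembly and annotation are not stated there. The 6 libraries compared held 13695566 to 18726093 counts. The tests were run in edgeR 4.0.16 (R 4.3.3): filterByExpr (3 rows removed), TMM scaling, 1 mean for each of 9 groups of age and diet (26 libraries, 17 residual degrees of freedom, common biological coefficient of variation 11.9%), robust quasi-likelihood F-tests, two-sided, with Benjamini-Hochberg adjustment. CPM are TMM-scaled, with SD over 3 libraries. The fit was tested on simulated counts for recovered changes, false calls and the slope of the log2 changes. The SE was not tested there. The 4 internal control samples were not analysed here.

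Named genes are the 12 largest rises and falls at 5 CPM or more without overlap, up to 4 changed members per direction of each of 35 lists at 5 CPM or more, and the genes with the smallest p for the differences between diets. Members and lists were chosen with earlier results of these data known, and names were matched without regard to capitals. The 454 names shared by 916 rows but for capitals were kept as separate rows. Alternatives were RLE scaling, other filters on low counts, the compared groups alone, the length score as covariate, a replicate block, DESeq2 1.42.0 and leaving out each library; the fit without 5 dph libraries 1 and 2 was chosen after seeing the data. A few genes that the rule names are not reported here. No sequence is printed.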

Additional observations from a re-analysis of the deposited data

Results flagged for a closer look

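With groups of 3 libraries no single library was tested as standing apart, and the 4 internal control samples were not analysed. What was flagged is the difference of the age change between diets. It passed the edgeR test for 3154 genes against low DHA and for 1 gene against high DHA. Of the 205 genes named for their age change, 94 differed from low DHA and 0 from high DHA in edgeR. Over all tested genes the shares were 43.3% and 0.0137%. The 205 were picked for their change in medium DHA, which enters both differences, so nothing about them is drawn from these counts. The genes with the smallest p for a more positive change in medium than in low DHA were Dlgap2 (log2 difference 2.02), NHLRC3 (1.96), ADGRF5 (1.93), Lurap1 (1.72), OIT3 (1.72) and VGF (1.31). For a more negative change they were MYL5 (-2.06), Gm525 (-1.53), NME1 (-1.23), Erh (-1.02), rrp15 (-0.94) and NFYB (-0.70). Against high DHA the flagged gene was ABRA (-1.39).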

How the results depend on the processing

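The count of genes changed between 10 and 5 dph in medium DHA (2488) was 2499 with RLE scaling, 2487 and 2349 with other filters on low counts and 2612 in DESeq2. It was 1170 in the compared groups alone, 1260 with the length score and 819 without 5 dph libraries 1 and 2, of which 1135, 1015 and 707 were among the 2488. Leaving out 1 medium library gave 1373 to 2826. The list members called (495) numbered 259, 221 and 155 in the same 3 fits and 281 to 561 without 1 library. Genes differing from low DHA (3154) numbered 929 with the length score, 2166 without 5 dph libraries 1 and 2, and 2803 to 3546 without 1 library. Genes differing from high DHA (1) numbered 0 in the compared groups alone, 0 with the replicate block, 105 in DESeq2, 2 without 5 dph libraries 1 and 2, and 0 to 214 without 1 library. The length score difference (0.835) was 0.601 to 1.17 without 1 library, 0.976 with ribosomal rows alone as the short genes and 0.602 with respiratory chain rows alone. Fewer libraries leave less power in some of these fits; otherwise the cause was not tested.

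Directions turned for treh (0.026 with the length score, 0.33 without 5 dph libraries 1 and 2) and thra (-0.035 with the length score). Of 205 changed named genes, 88 were called in every alternative run and 105 in every planned one. The replicate block gave 2524 genes for the age change, 510 list members and 3129 genes differing from low DHA, and 7 named values lost their call in it. Same-numbered libraries of the 2 ages had correlations of -0.072, 0.27 and 0.24, and the 5 dph library 1 correlated best with the 10 dph library 2. Totals of 13695566 to 18726093 counts per library limit genes of a few CPM, for which 1 library can decide a call.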

Other observations

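Rows whose names differ only in capitals may be separate paralogues. Among 454 such names, 88 had at least 2 changed rows, and for 17 of these the rows moved in opposite directions. SLC15A1, named for a peptide transporter of the gut, rose from 167 ± 30.1 to 282 ± 56.6 CPM (log2 fold change 0.75 ± 0.15), while Slc15a1 fell from 120.1 ± 21.5 to 79.3 ± 16.1 CPM (-0.60 ± 0.16). RBP2, named for the intestinal retinol binding protein, fell from 72.4 ± 17.4 to 45.6 ± 1.82 CPM (-0.67 ± 0.14), while Rbp2 rose from 141 ± 13.5 to 288 ± 32.9 CPM (1.04 ± 0.16). PRSS8, named for the epithelial protease prostasin, rose from 39.6 ± 3.64 to 152 ± 14.1 CPM (1.94 ± 0.12), while Prss8 fell from 15.4 ± 1.59 to 10.9 ± 0.687 CPM (-0.49 ± 0.12). SLC6A13, named for a GABA and taurine transporter, fell from 114 ± 18.9 to 55.9 ± 6.72 CPM (-1.03 ± 0.17), while Slc6a13 rose from 39.5 ± 2.37 to 49.2 ± 3.37 CPM (0.31 ± 0.11). These pairs were picked after their values were seen. Whether each row holds its own paralogue cannot be told from the table.

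The changed genes without overlap between the ages were also ranked by their difference in mean CPM and not by fold. In that ranking MT-ND5, a mitochondrially encoded subunit of complex I, had the largest fall, from 65402 ± 8945 to 52627 ± 4172 CPM (-0.31 ± 0.11, edgeR adjusted p = 0.026). The methyltransferase gene bhmt, which remakes methionine from homocysteine, fell from 4247 ± 592 to 1519 ± 134 CPM (-1.48 ± 0.13, edgeR adjusted p = 5.1e-08). The largest rise in that ranking was that of gapdh.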
